A study of Mus musculus with 8 samples.

Results

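Chemokines and their receptors were described across 3 bones of the mouse. The members were the protein-coding genes whose symbol is Ccl, Cxcl, Cx3cl, Xcl, Ccr, Cxcr, Cx3cr, Xcr or Ackr followed by a number. Of the 43346 genes in the count table, 60 met this rule, namely 37 ligands, 19 signalling receptors and 4 decoy receptors. A further 7 of the 67 protein-coding genes that meet it in GENCODE M21 were not analysed here. RNA was sequenced from osteocyte-enriched fractions of bone from untreated C57BL/6 mice aged 12 weeks; osteocytes are the cells that sit inside the mineralized matrix. There were 3 libraries of femur (numbered 1, 2 and 4), 3 of frontal bone (1, 2 and 4) and 2 of parietal bone (2 and 4), and frontal and parietal bone together are called calvaria (n = 5). Whether a library stands for a single animal or for pooled bones is not stated in the labels. The p-values therefore cover the library-to-library spread alone, which may be technical.

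Chemokines are small secreted proteins that steer the movement of cells. They act on membrane receptors that signal through G proteins, and their families (CC, CXC, CX3C and XC) are named for the spacing of their first cysteines. Decoy receptors, also called atypical receptors, bind chemokines without G protein signalling and carry them into the cell for breakdown or across it. In bone marrow, CXCL12 from stromal and bone-lining cells holds blood stem cells, B cell precursors and neutrophils through CXCR4, and ACKR3 takes up the same ligand.

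The starts of a few of these genes are shown first, since the results below turn on CXCL12 with its signalling and its decoy receptor, and on the inducible CXC ligands. The sequences are the 250 bases before the annotated start, from RefSeq on GRCm38.p6, read 5′ to 3′ on the strand of the gene. RefSeq promoters were found for 46 of the 60 members. In the first set, Cxcl12 lies at chr6:117168285-117168534 on the plus strand, Cxcr4 at chr1:128592300-128592549 on the minus strand, and Ackr3 at chr1:90203730-90203979 on the plus strand. Capitals mark the GC box (GGGCGG on either strand) and the TATA motif (TATAAA on either strand).
Cxcl12: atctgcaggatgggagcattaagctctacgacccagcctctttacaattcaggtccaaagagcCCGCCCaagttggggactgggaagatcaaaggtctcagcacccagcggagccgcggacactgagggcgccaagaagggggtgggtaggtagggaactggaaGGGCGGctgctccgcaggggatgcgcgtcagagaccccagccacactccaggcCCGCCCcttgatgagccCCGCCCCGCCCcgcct
Cxcr4: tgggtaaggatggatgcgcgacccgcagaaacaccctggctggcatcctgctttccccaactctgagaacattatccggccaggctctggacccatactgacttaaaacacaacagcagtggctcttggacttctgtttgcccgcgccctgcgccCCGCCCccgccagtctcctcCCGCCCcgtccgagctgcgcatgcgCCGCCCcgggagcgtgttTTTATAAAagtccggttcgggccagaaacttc
Ackr3: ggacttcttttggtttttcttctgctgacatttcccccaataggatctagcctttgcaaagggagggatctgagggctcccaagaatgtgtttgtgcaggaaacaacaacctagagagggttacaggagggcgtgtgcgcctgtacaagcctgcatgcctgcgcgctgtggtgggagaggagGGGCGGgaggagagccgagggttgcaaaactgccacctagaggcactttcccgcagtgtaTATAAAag

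The Cxcl12 sequence held GC boxes in 4 runs and no TATA motif, the longest run lying 16 to 6 bases before the start. Cxcr4 held 3 GC boxes, 95 to 45 bases before the start, and a TATA motif at 32 to 25. Ackr3 held a GC box at 68 to 63 bases and a TATA motif at 8 to 3. Of all 27025 promoters of this length, 32.9% held a GC box and 13.0% a TATA motif, against 7 and 13 of the 46 members. Such a match is a description of letters, not of a bound site.

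The second set holds Cxcl1 (chr5:90890995-90891244), Cxcl2 (chr5:90903649-90903898) and Cxcl3 (chr5:90785851-90786100), all on the plus strand and neighbours in a gene cluster, and Cxcl10 (chr5:92348890-92349139, minus strand). They are shown because Cxcl1, Cxcl3 and Cxcl10 were lower in calvaria while Cxcl2 was not called. Here capitals mark matches to the NF-kappaB motif and, in Cxcl10, also the interferon-stimulated response element. The GC box of Cxcl2 and the TATA motif of Cxcl3 are left in lower case.
Cxcl1: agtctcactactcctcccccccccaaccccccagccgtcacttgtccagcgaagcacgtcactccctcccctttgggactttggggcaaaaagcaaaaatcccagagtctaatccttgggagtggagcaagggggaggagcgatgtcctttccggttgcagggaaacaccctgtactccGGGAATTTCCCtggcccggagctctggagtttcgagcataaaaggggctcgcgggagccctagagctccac
Cxcl2: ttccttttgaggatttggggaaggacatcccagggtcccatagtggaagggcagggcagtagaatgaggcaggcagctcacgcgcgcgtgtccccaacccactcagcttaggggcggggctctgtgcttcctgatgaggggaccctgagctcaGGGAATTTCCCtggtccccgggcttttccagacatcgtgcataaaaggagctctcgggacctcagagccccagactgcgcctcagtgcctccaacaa
Cxcl3: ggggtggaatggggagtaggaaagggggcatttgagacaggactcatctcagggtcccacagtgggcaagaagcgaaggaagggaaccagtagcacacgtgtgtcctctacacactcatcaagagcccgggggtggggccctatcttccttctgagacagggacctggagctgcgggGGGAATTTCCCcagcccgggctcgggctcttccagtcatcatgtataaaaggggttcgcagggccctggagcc
Cxcl10: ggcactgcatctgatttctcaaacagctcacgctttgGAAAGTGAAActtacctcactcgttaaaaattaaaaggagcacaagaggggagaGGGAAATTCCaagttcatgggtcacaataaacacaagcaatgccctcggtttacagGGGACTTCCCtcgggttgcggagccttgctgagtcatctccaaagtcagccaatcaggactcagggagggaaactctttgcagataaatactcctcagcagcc

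Cxcl1, Cxcl2 and Cxcl3 carried the same 11 letters, at 71 to 61, 97 to 87 and 73 to 63 bases before the start. Cxcl10 carried NF-kappaB matches at 103 to 94 and 159 to 150 bases and the interferon-stimulated response element at 213 to 204. The NF-kappaB motif was found on either strand in 3.75% of all promoters and in 8 of the 46 members, namely Ackr2, Ccl20, Ccl9, Ccr3, Cxcl1, Cxcl10, Cxcl2 and Cxcl3. The interferon-stimulated response element was found in 3.04% of all promoters and in Ccl19, Cxcl10 and Cxcl14.

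The libraries held 6259229 to 13461622 gene counts. The members took 0.297 to 0.328% of the counts in femur, 0.360 to 0.393% in frontal bone and 0.433 to 0.446% in parietal bone. The fractions differed in the marker RNA they held. The 10 genes of an osteocyte list took 2.31 to 4.56% of counts in femur libraries and 0.0749 to 0.14% in calvarial ones. This share is mainly Dmp1, with means of 35230 CPM in femur and 527 CPM in calvaria. Mepe, the next gene in femur, had means of 3129 and 480 CPM. Of the 10 genes, 9 were called lower in calvaria and Fgf23 was not called, so markers of the labelled cell type were far less visible there. Granulocyte genes took 1.63 to 4.25% in femur and 6.28 to 8.5% in calvaria, erythroid genes 1.18 to 2.89% and 6.93 to 11.0%, and endothelial genes 0.0533 to 0.0652% and 0.0238 to 0.0337%. No marker of these lists was at 0 in all libraries. In bulk RNA, fewer cells of a type and less RNA per cell cannot be told apart, which holds for every value below.

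Levels are given as CPM, the counts of a gene relative to its library total and scaled between libraries by the trimmed mean of M values (TMM), in the order of libraries 1, 2 and 4 for femur and frontal bone and 2 and 4 for parietal bone. A gene was called higher or lower at an adjusted p under 0.05 by edgeR's quasi-likelihood test, with Benjamini-Hochberg adjustment across the 15511 genes that were tested. Of the 60 members, 42 passed the filter on low counts, set at about 1.09 CPM. None of them was over this limit in femur libraries alone or in no femur library. Ccl22, however, was over it in the 3 femur libraries and in parietal library 4 only, so it passed through femur. The 18 others comprised 4 without any count (Ccl21a, Ccl21b, Ccl26 and Ccl27b) and 14 with 3 to 56 counts over all 8 libraries, namely Ccl1, Ccl11, Ccl17, Ccl19, Ccl20, Ccl24, Ccl28, Cxcl15, Cxcl17, Ccr1l1, Ccr4, Ccr8, Ccr10 and Cxcr1. When the filter was left out, 13 of these 14 were not called in any comparison. The exception was Ccl20, the ligand of CCR6, which had 6 and 15 of its 23 counts in femur libraries 1 and 2, the other 2 in parietal library 4 and none in the 5 remaining libraries, femur library 4 among them. By edgeR it was lower in calvaria than in femur without the filter (adjusted p = 0.000474), and also where leaving out parietal library 2 (0.0485) or parietal library 4 (0.022) let it pass the filter. These calls rest on the counts of 2 femur libraries.

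Calvaria was first compared with femur. Of the 42 tested members, 15 were higher in calvaria, 11 were lower and 16 were not called, where 29.6% of all genes tested were called higher and 31.4% lower. Their median log2 fold change was 0.24, against 0.01 for all genes. All calvarial libraries lay above all femur libraries in 12 of the 42 members and below them in 10. Over all genes tested, this was so in 26.0% and 27.5%, so groups that do not overlap are common in these data. The classes had different counts. Of 14 signalling receptors, 8 were higher and 0 lower, with a median log2 fold change of 0.51. No signalling receptor was lower at an unadjusted p under 0.05 by edgeR either, and DESeq2 and limma-voom called 0 lower. Of 24 ligands, 5 were higher and 9 lower, with a median of 0.02, and the 4 decoy receptors held 2 higher and 2 lower members. Of the 26 called members, 22 were called in the same direction under all 16 alternative settings, and the other 4 (Ccl8, Ccr7, Cx3cr1 and Cxcr4) lost their call under at least 1.

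**Figure D1:**
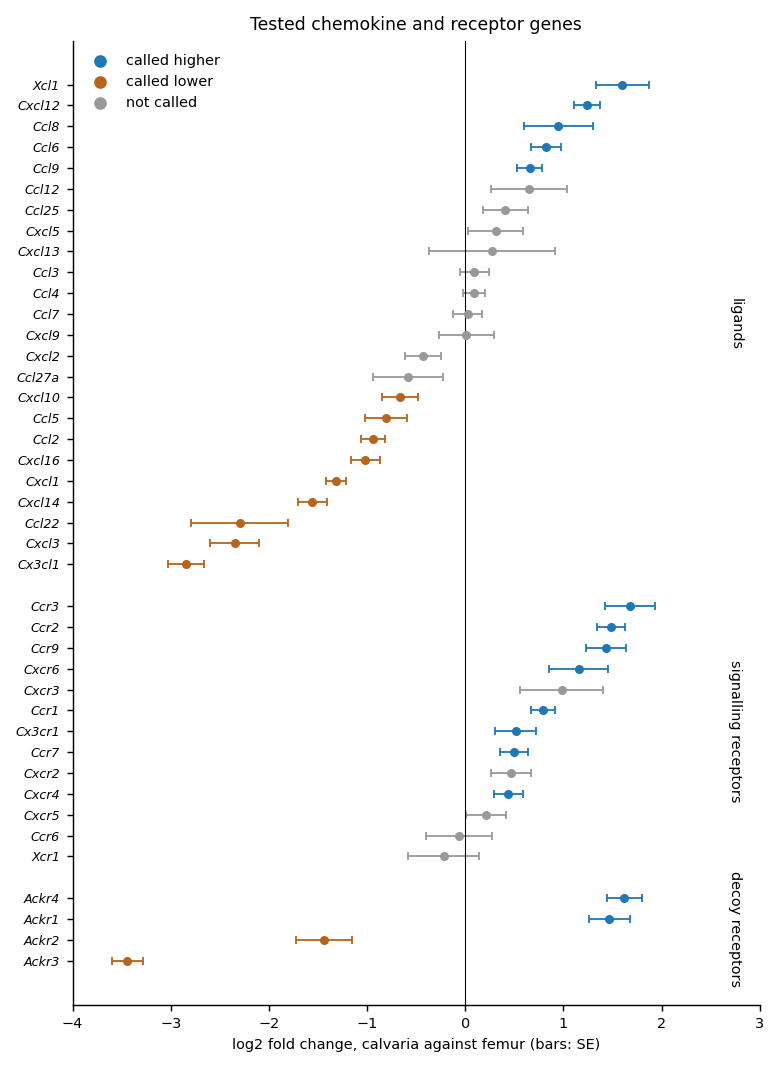
Log2 fold change of calvaria against femur (x axis) for the tested members (y axis; 1 not shown), ordered within ligands, signalling receptors and decoy receptors; points are edgeR estimates and bars 1 SE. Blue points were called higher, brown points lower and grey points not called; the signalling receptors hold 8 blue points and no brown one, while Ackr3 lies farthest to the left at -3.44.

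The CXCL12 axis moved in opposite directions at its ligand and its decoy receptor. Cxcl12 (chromosome 6, 117168535 to 117181367, GRCm38) stood at 704.5, 558 and 697 CPM in femur, at 1306, 1572 and 1367 CPM in frontal bone and at 1743 and 1621 CPM in parietal bone. Every calvarial library lay above every femur library. The log2 fold change was 1.24 ± 0.13 (SE, adjusted p = 1.02e-05), a 2.36-fold higher level in calvaria. Ackr3 (chromosome 1, 90203980 to 90216751) went the other way, with 558, 530 and 402 CPM in femur, 27.4, 40.7 and 36.8 CPM in frontal bone and 53.7 and 65.5 CPM in parietal bone. The lowest femur library was thus several times the highest calvarial one. Its log2 fold change of -3.44 ± 0.16 (SE, adjusted p = 4.33e-08) was the largest in size among the 42 members and corresponds to a 10.9-fold lower level in calvaria.

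Cxcr4 (chromosome 1, 128588199 to 128592293), the signalling receptor of the axis, differed little. It stood at 33.3, 39.1 and 48.1 CPM in femur, 66.2, 50.7 and 56.3 CPM in frontal bone and 51.6 and 51.7 CPM in parietal bone. The groups did not overlap, but femur library 4 lay close to frontal library 2. The log2 fold change was 0.44 ± 0.15 (SE, adjusted p = 0.0214). This call was lost without femur library 1 (log2 fold change 0.30, adjusted p = 0.108), femur library 2 (0.41, 0.0811), parietal library 2 (0.43, 0.0593) or parietal library 4 (0.42, 0.0621).

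**Figure D2:**
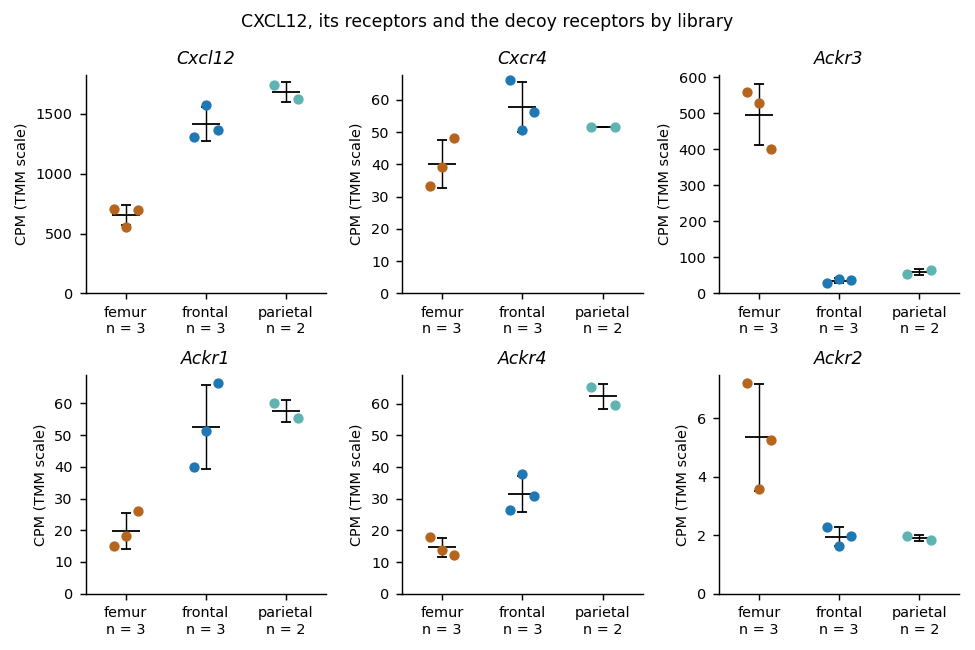
CPM on the TMM scale (y axis) of Cxcl12, Cxcr4 and the 4 decoy receptors in every library of the 3 bones (x axis); points are libraries, horizontal lines the means and bars ±1 SD. In each of the 5 calvarial libraries, Cxcl12 lies above and Ackr3 below the whole femur range, and Ackr4 is highest in the 2 parietal libraries.

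On a per length scale (CPM per kb of exon), which allows genes to be set against each other, Ackr3 exceeded Cxcr4 in the femur libraries and lay below it in the calvarial ones. The ratio of Ackr3 to Cxcr4 was 9.06, 7.32 and 4.51 in the femur libraries. It was 0.224, 0.433 and 0.353 in the frontal and 0.562 and 0.685 in the parietal libraries. All 3 femur ratios lay above 1 and all 5 calvarial ones below it, with means of 6.96 ± 2.29 (SD, n = 3) and 0.452 ± 0.179 (SD, n = 5). The side of 1 depends on the length scale. By CPM alone, Ackr3 lay below Cxcr4 in the frontal libraries. It lay above Cxcr4 in both parietal ones (53.7 against 51.6 CPM, and 65.5 against 51.7 CPM). The ratio of Cxcl12 to Ackr3 averaged 0.553 ± 0.143 in femur and 14.8 ± 3.44 in calvaria, again without overlap. By CPM alone, Cxcl12 lay above Ackr3 in each femur library too, with femur means of 653.1 and 496.5 CPM. The ratio of Cxcl12 to Cxcr4 averaged 3.68 ± 0.867 in femur and 6.20 ± 1.29 in calvaria. Here femur library 1 (4.68) lay above frontal library 1 (4.36).

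Markers of other cells moved with the axis. Of the 10 osteocyte genes, 9 were lower in calvaria, as Ackr3 was. Of the 3 femur libraries, library 4 had the lowest Ackr3 level and the lowest osteocyte share (2.31%). It also had the lowest osteoblast and matrix share (6.37%) and the highest granulocyte share (4.25%), so the match is not particular to osteocytes. Of 9 osteoblast and matrix genes, 8 were lower (6.37 to 8.85% of counts in femur, 1.21 to 3.26% in calvaria), and 8 of 9 endothelial genes were lower too. Of 10 genes of CXCL12-abundant reticular cells, the marrow stromal cells that make most CXCL12, 6 were higher and 2 lower in calvaria, with 0.0833 to 0.0885% of counts in femur and 0.0808 to 0.119% in calvaria. The higher genes were Angpt1 (log2 fold change 1.54), Ebf1 (0.98), Il7 (0.96), Ebf3 (0.95), Adipoq (0.87) and Gas6 (0.83), which encode secreted factors or, for Ebf1 and Ebf3, transcription factors. Lepr, the receptor that defines these cells, had a log2 fold change of 0.14 (adjusted p = 0.762), while Foxc1, a transcription factor of the same cells, fell by 1.82. The part of these cells in the levels of Cxcl12 and Ackr3 was not tested.

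The other decoy receptors split. Ackr1, which binds many inflammatory chemokines on red cells and on small veins, stood at 15.1, 18.2 and 26.0 CPM in femur, 39.8, 51.3 and 66.4 CPM in frontal bone and 60.0 and 55.3 CPM in parietal bone, higher in every calvarial library (log2 fold change 1.47 ± 0.21, adjusted p = 8.49e-05). Ackr4, a scavenger of CCL19, CCL21 and CCL25, stood at 18.0, 13.7 and 12.1 CPM in femur, 26.4, 37.7 and 30.8 CPM in frontal bone and 65.2 and 59.6 CPM in parietal bone (1.62 ± 0.18, adjusted p = 1.24e-05). The bones thus formed 3 separate ranges for Ackr4, with femur lowest and parietal bone highest. Ackr2, which degrades inflammatory CC chemokines, was the least abundant decoy receptor, at 7.20, 3.58 and 5.24 CPM in femur, 2.27, 1.62 and 1.96 CPM in frontal bone and 1.98 and 1.84 CPM in parietal bone. It was lower in calvaria without overlap (log2 fold change -1.44 ± 0.29, adjusted p = 0.00102). All 9 erythroid genes were higher in calvaria, in the direction of Ackr1, and 8 of 9 endothelial genes were lower, and their part in its level was not tested. Exons of Ackr1 overlap those of Cadm3 on the same strand, and those of Ackr4 overlap Acad11 on the opposite strand. An overlap on the same strand cannot be resolved by strand, and the strand setting of the counting, which bears on the overlap of Ackr4, is not given in the sources used here, so both values are uncertain to that extent.

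The make-up of the decoy receptors per exon length turned over between the bones. Ackr3 made up 88.6 ± 3.77% (SD, n = 3) of their summed CPM per kb in femur and 21.7 ± 4.0% (SD, n = 5) in calvaria. Ackr1 made up 8.75 ± 3.74% in femur and 64.2 ± 6.73% in calvaria, and Ackr4 1.62 ± 0.191% and 13.1 ± 3.25%. In every library of either bone group the first place was held by the same gene, Ackr3 in femur and Ackr1 in calvaria. By CPM alone, Ackr1 was first in the frontal libraries only. Ackr4 (65.2 CPM) was first in parietal library 2 and Ackr3 (65.5 CPM) in parietal library 4. The summed decoy receptors stood at 167 ± 21.5 CPM per kb in femur and 61.0 ± 12.2 CPM per kb in calvaria. The summed signalling receptors went the other way, at 178 ± 22.1 and 291 ± 32.7 CPM per kb, and the summed ligands stood at 1133 ± 70.3 and 1123 ± 118 CPM per kb. By CPM alone, the summed ligands were not level, at 2224 ± 188 CPM in femur and 2881 ± 295.5 CPM in calvaria.

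Among ligands per exon length, Ccl2 took the first place in femur, with 17.8 ± 1.92% of their summed CPM per kb, followed by Ccl4 (14.4 ± 1.24%), Ccl6 (13.6 ± 2.26%), Cxcl1 (12.3 ± 0.973%) and Cxcl12 (7.04 ± 0.517%). Ccl6 changed places with Ccl4 and Cxcl1 between femur libraries, so their order is within the spread, and Ccl3 (7.0 ± 0.911%) did not differ from Cxcl12 beyond the spread. In calvaria Ccl6 took 23.7 ± 2.17%, Cxcl12 16.6 ± 1.96%, Ccl4 15.2 ± 0.648%, Ccl2 9.18 ± 1.13% and Ccl3 7.62 ± 1.69%. Ccl6 was first in each of the 5 calvarial libraries, while Cxcl12 and Ccl4 changed places among them. Orders on this scale depend on the exon lengths, which were 8176 bases for Cxcl12, 1138 for Ccl2 and 1795 for Ccl6. By CPM alone, Cxcl12 was the first ligand in every library. Its means were 653.1 CPM in femur and 1522 CPM in calvaria, against 276.0 and 479.7 CPM for Ccl6. Among signalling receptors Ccr1 was first in all 8 libraries, with 46.1 ± 0.735% in femur and 47.6 ± 4.62% in calvaria. Within calvaria its share was 44.4 ± 1.88% in frontal and 52.25 ± 2.26% in parietal bone, where both libraries lay above all others. In the femur and frontal libraries Cxcr2, Ccr7 and Cxcr4 followed, in an order that differed between libraries. In parietal library 2, Ccr2 (10.5%) came next after Cxcr2 (11.5%), and in parietal library 4 it stood above Cxcr2 (11.6 and 11.0%).

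**Figure D3:**
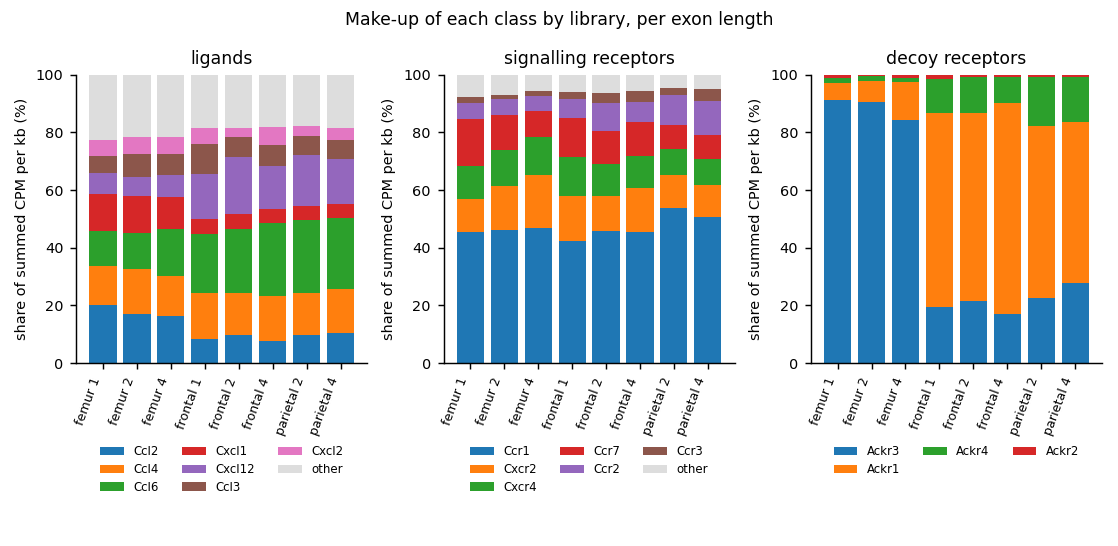
Share of each class's summed CPM per kb of exon (y axis, percent) taken by its most abundant members, in each library (x axis), for ligands, signalling receptors and decoy receptors. Ackr3 fills most of the decoy receptor bar in the 3 femur libraries and Ackr1 in the 5 calvarial ones; Ccr1 holds a similar share of the signalling receptors throughout.

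Of the homeostatic CXC ligands, which are made by resting tissue, Cxcl12 was higher and 2 were lower among 4 tested. Cxcl14, an epithelial and tissue chemokine, stood at 71.0, 57.7 and 62.2 CPM in femur, 16.1, 23.8 and 18.1 CPM in frontal bone and 25.3 and 22.5 CPM in parietal bone. Cxcl16, a membrane-bound ligand of CXCR6, stood at 58.5, 54.0 and 50.8 CPM in femur, 23.7, 20.5 and 30.8 CPM in frontal bone and 28.7 and 29.1 CPM in parietal bone. In both genes all calvarial libraries lay below all femur libraries, with log2 fold changes of -1.56 ± 0.15 (adjusted p = 4.29e-06) and -1.02 ± 0.15 (adjusted p = 8.47e-05). Cxcl13, the B cell attractant that acts on CXCR5, varied between 0.140 and 3.39 CPM and was not called (0.27 ± 0.64, adjusted p = 0.739). Exons of Cxcl16 overlap Zmynd15 on the opposite strand.

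Among the members, the tested neutrophil-attracting ligands of CXCR2 fell or were not called. Ppbp, a chemokine outside the symbol rule, rose (log2 fold change 1.33) and is given below with the platelet chemokines. Cxcl1 stood at 284, 260 and 241 CPM in femur, 101, 96.1 and 102 CPM in frontal bone and 111 and 110 CPM in parietal bone. Cxcl3 stood at 67.4, 52.5 and 54.0 CPM in femur, 11.1, 6.67 and 19.1 CPM in frontal bone and 10.5 and 10.7 CPM in parietal bone. Neither gene overlapped between femur and calvaria, and Cxcl3 spread more among the frontal libraries. Their log2 fold changes were -1.32 ± 0.10 (adjusted p = 8.82e-07) and -2.35 ± 0.25 (adjusted p = 1.02e-05). Cxcl2, the neighbour that carries the same NF-kappaB letters, was not called (-0.43 ± 0.19, adjusted p = 0.0635). It was called lower without frontal library 2 (-0.31, 0.0407) or frontal library 4 (-0.56, 0.0146). With all libraries it was also called lower by limma-voom (-0.47, 0.0455), and by edgeR with a replicate block (-0.44, 0.0452) or without the filter (-0.41, 0.0143). Cxcl5 was not called either (0.31 ± 0.28, adjusted p = 0.356).

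While Cxcl1 and Cxcl3 were lower in calvaria, granulocyte markers were higher there, with 7 of 11 called higher. Cxcr2, the neutrophil receptor for the same ligands, had a log2 fold change of 0.47 ± 0.21 (adjusted p = 0.0685). Cxcr2 was called higher without femur library 4 (0.75, adjusted p = 0.00487) or frontal library 2 (0.54, 0.0325). With all libraries it was also called higher by limma-voom (0.50, 0.0459). The same held for edgeR with upper quartile scaling (0.64, 0.0169), library size only (0.55, 0.0452) or no filter (0.49, 0.00347). The part of granulocytes in these levels was not tested.

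Of the interferon-inducible ligands of CXCR3, Cxcl10 stood at 54.4, 48.2 and 64.5 CPM in femur, 44.1, 28.1 and 45.8 CPM in frontal bone and 27.2 and 35.8 CPM in parietal bone. All calvarial libraries lay below all femur libraries, frontal library 4 by a small margin, and the log2 fold change was -0.66 ± 0.18 (adjusted p = 0.00697). Cxcl9 lay between 8.01 and 17.9 CPM in the 8 libraries and was not called (0.01 ± 0.28, adjusted p = 0.978). Exons of Cxcl10 overlap Art3 on the opposite strand.

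The 9 tested inflammatory CC ligands moved both ways, with 3 higher, 2 lower and 4 not called. Ccl2, the main ligand of CCR2 on monocytes, stood at 273, 204 and 215 CPM in femur, 97.4, 109 and 99.2 CPM in frontal bone and 135 and 149 CPM in parietal bone, lower in every calvarial library (log2 fold change -0.94 ± 0.12, adjusted p = 4.13e-05). Ccl6, a CC ligand of myeloid cells in the mouse, stood at 264, 232 and 332 CPM in femur, 383, 389 and 517 CPM in frontal bone and 554 and 555 CPM in parietal bone, higher in every calvarial library (0.82 ± 0.15, adjusted p = 0.000564). Ccl9, a related myeloid ligand of CCR1, stood at 107, 91.6 and 125 CPM in femur, 136, 128 and 153 CPM in frontal bone and 200 and 216 CPM in parietal bone, with frontal library 2 just above femur library 4 (0.66 ± 0.13, adjusted p = 0.000932). Ccl2 was thus lower in calvaria where Ccl6 and Ccl9 were higher.

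Ccl5, a ligand of CCR1 and CCR3, stood at 34.0, 30.4 and 34.8 CPM in femur, 31.6, 14.3 and 25.5 CPM in frontal bone and 15.8 and 14.1 CPM in parietal bone. Frontal library 1 lay within the femur range, and the log2 fold change was -0.81 ± 0.22 (adjusted p = 0.00641). Ccl8, a monocyte attractant, stood at 6.35, 3.58 and 1.75 CPM in femur, 7.27, 9.92 and 5.88 CPM in frontal bone and 6.33 and 7.26 CPM in parietal bone. Femur library 1 lay within the calvarial range. Its call (0.95 ± 0.35, adjusted p = 0.0343) was lost without femur library 2 or 4, frontal library 1 or 2, or parietal library 2 or 4, at adjusted p from 0.0513 to 0.128. Not called were Ccl3 (0.09 ± 0.15) and Ccl4 (0.09 ± 0.11), the macrophage inflammatory proteins, and the monocyte attractants Ccl7 (0.02 ± 0.15) and Ccl12 (0.65 ± 0.39).

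Of 11 homeostatic or tissue CC ligands, 3 were tested. Ccl22, the ligand of CCR4 on regulatory and helper T cells, was low, with means of 3.51 ± 1.72 CPM in femur (SD, n = 3) and 0.697 ± 0.377 CPM in calvaria (SD, n = 5), and was lower in calvaria (log2 fold change -2.30 ± 0.49, adjusted p = 0.00163). Ccl22 passed the filter through femur, the bone where it is higher, so its call is not independent of the filter. Ccl25, which acts on CCR9 (0.41 ± 0.23), and Ccl27a, which acts on CCR10 (-0.58 ± 0.36), were not called. Without femur library 4, Ccl27a was called lower (-0.88, adjusted p = 0.0493). Exons of Ccl25 and Ccl27a overlap Elavl1 and Il11ra1 on the opposite strand.

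The ligands of the smallest families diverged. Cx3cl1 (fractalkine, chromosome 8, 94772009 to 94782427), a membrane-bound ligand that can be shed, stood at 51.6, 42.5 and 37.4 CPM in femur, 6.56, 9.54 and 6.72 CPM in frontal bone and 4.42 and 5.23 CPM in parietal bone. The lowest femur library was several times the highest calvarial one, and the log2 fold change of -2.85 ± 0.18 (adjusted p = 2.18e-07), 7.19-fold lower, was the second in size among members after Ackr3. Endothelial markers, from cells known to make fractalkine, were lower in calvaria in 8 of 9 genes, and their part in its level was not tested. Xcl1 (lymphotactin), a product of activated T cells and natural killer cells, stood at 1.20, 1.79 and 1.75 CPM in femur, 4.53, 4.67 and 6.16 CPM in frontal bone and 4.65 and 4.84 CPM in parietal bone. Each calvarial library exceeded each femur library (1.60 ± 0.27, adjusted p = 0.000309). Of 9 T and natural killer cell markers, 8 were higher, with 0.00529 to 0.00953% of counts in femur and 0.0208 to 0.0294% in calvaria, and their part was not tested. Exons of Xcl1 overlap Gm20743 on the opposite strand.

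Among the signalling CC receptors, 5 were higher in calvaria. Ccr2, which brings monocytes out of the marrow, stood at 59.4, 65.9 and 70.9 CPM in femur, 117, 167 and 131 CPM in frontal bone and 233 and 251 CPM in parietal bone, a separate range for each bone (log2 fold change 1.48 ± 0.14, adjusted p = 4.27e-06). Ccr3, the receptor of eosinophils and basophils, stood at 11.2, 7.54 and 10.4 CPM in femur, 21.4, 26.8 and 36.8 CPM in frontal bone and 24.6 and 42.4 CPM in parietal bone, with no overlap (1.68 ± 0.25, adjusted p = 0.00013). Ccr1, a receptor of myeloid cells and osteoclasts, stood at 204, 226 and 268 CPM in femur, 323, 325 and 370 CPM in frontal bone and 500 and 460 CPM in parietal bone, again without overlap (0.79 ± 0.12, adjusted p = 0.000166). The most abundant receptor thus differed less than the rarer Ccr2 and Ccr3.

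Ccr9, a receptor of lymphocytes that home to the gut, stood at 4.12, 4.71 and 4.07 CPM in femur, 11.1, 9.92 and 13.5 CPM in frontal bone and 10.5 and 13.5 CPM in parietal bone. The groups were apart (log2 fold change 1.43 ± 0.21, adjusted p = 8.82e-05), although exons of Ccr9 overlap Slc6a20a on the opposite strand and Gm17200 on the same strand. Ccr7, which guides lymphocytes and dendritic cells to lymph nodes, was higher by 0.50 ± 0.14 (adjusted p = 0.0102), a call lost without femur library 2 (0.46, 0.0509). Ccr6 (-0.07 ± 0.34) was not called.

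Of 5 tested CXC receptors, 2 were higher, Cxcr4 as above and Cxcr6. Cxcr6, the receptor of CXCL16 on T cells and natural killer cells, stood at 3.26, 3.11 and 1.75 CPM in femur, 2.98, 5.05 and 5.88 CPM in frontal bone and 8.08 and 7.45 CPM in parietal bone. Frontal library 1 lay within the femur range, and the log2 fold change was 1.16 ± 0.30 (adjusted p = 0.00566). Cxcr3 on T cells (0.98 ± 0.42, adjusted p = 0.0612) and Cxcr5 on B cells (0.21 ± 0.20, adjusted p = 0.387) were not called over both calvarial bones. Cxcr3 was called higher without frontal library 4 (1.10, 0.0313) or with upper quartile scaling (1.15, 0.0304). Cx3cr1, the fractalkine receptor of monocytes and macrophages, stood at 6.69, 9.51 and 5.82 CPM in femur, 12.2, 10.4 and 11.9 CPM in frontal bone and 10.5 and 8.90 CPM in parietal bone. Its groups overlapped, and its call (0.51 ± 0.21, adjusted p = 0.0484) was lost without femur library 1 or 4 or frontal library 1 or 4, at adjusted p from 0.0805 to 0.19. The call was also lost without parietal library 2 (log2 fold change 0.44) or parietal library 4 (0.55). With all libraries, the call was also lost by DESeq2 (adjusted p = 0.0639), and in edgeR with RLE scaling (0.0529), a replicate block (0.0701), a filter on mean CPM (0.0577) or no filter (0.0782). Exons of Cx3cr1 overlap Gm33858 on the opposite strand. Xcr1, the lymphotactin receptor of dendritic cells, was not called (-0.22 ± 0.36).

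Most lists of blood cell markers held more genes called higher than lower in calvaria, as the receptors did. Of 6 genes shared by all leukocytes, 4 were higher in calvaria, with 0.118 to 0.203% of counts in femur and 0.239 to 0.29% in calvaria. Ptprc, which encodes CD45, rose by 0.87 on the log2 scale. Of 10 monocyte and macrophage genes, 6 were higher and 2 lower (0.159 to 0.209% and 0.222 to 0.242%). Of 6 mast cell, basophil and eosinophil genes, 5 were higher (0.0792 to 0.12% and 0.293 to 0.376%), and of 7 B cell genes, 6 were higher (0.0176 to 0.0255% and 0.0644 to 0.0792%). Of 7 osteoclast genes, 5 were higher (0.0779 to 0.163% and 0.154 to 0.364%). Of 6 dendritic cell genes, 3 were higher and 1 lower (0.00679 to 0.00828% and 0.0103 to 0.0124%). The plasma cell list went the other way, with 1 of 4 genes higher and 2 lower (0.0577 to 0.0919% and 0.0563 to 0.121%). The part of these cells in the receptor levels was not tested.

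Many members lie in gene clusters, taken here as members within 200 kb of each other in GENCODE M21 on GRCm38. In the receptor cluster of chromosome 9, Ccr9, Cxcr6, Ccr1, Ccr3 and Ccr2 were higher in calvaria, Xcr1 was not called and Ccr1l1 was not tested. The CC ligands of chromosome 11 did not move together. Between 83525778 and 83664683, Ccl9 and Ccl6 were higher, Ccl5 was lower, and Ccl3 and Ccl4 were not called. Between 82035571 and 82305690, Ccl2 was lower, Ccl8 higher, and Ccl7 and Ccl12 not called. On chromosome 5 (90759360 to 90905938) Cxcl3 and Cxcl1 were lower while Cxcl5 and Cxcl2 were not called, and on chromosome 8 (94745590 to 94812036) the neighbours Ccl22 and Cx3cl1 were both lower.

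**Figure D4:**
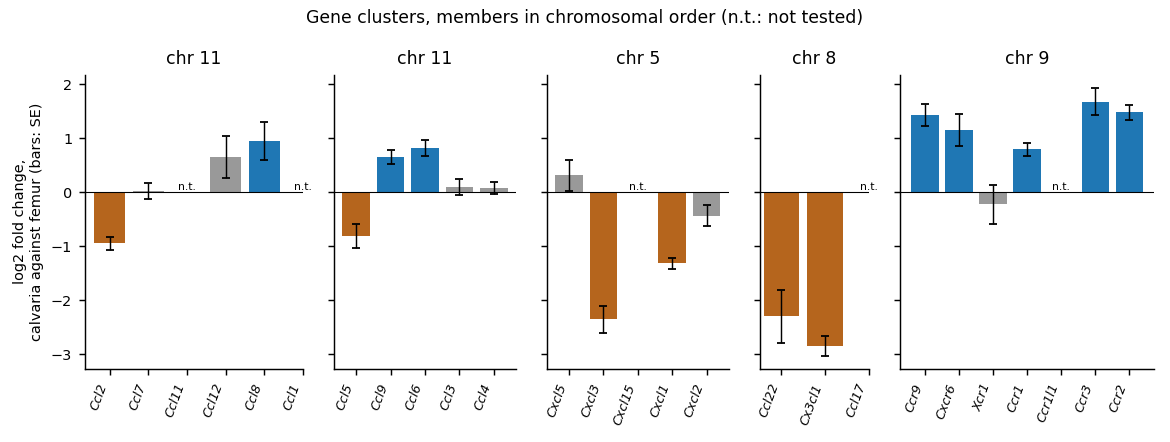
Log2 fold change of calvaria against femur (y axis, bars ±1 SE) for members of 5 gene clusters in chromosomal order (x axis; 1 not shown). Blue bars were called higher, brown lower and grey not called; n.t. marks genes under the count filter. The chromosome 9 receptors hold 5 blue bars and no brown one, while both chromosome 11 ligand clusters hold bars of each sign.

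Each calvarial bone was then set against femur. Both comparisons share the 3 femur libraries. Frontal bone had 16 higher and 9 lower members of 42, where 27.2% of all genes were called higher and 28.5% lower. Parietal bone had 11 higher and 11 lower members, where 27.1% of all genes were called higher and 28.6% lower. The median log2 fold change of the members was 0.23 in frontal and 0.31 in parietal bone, against 0.02 and 0.01 for all genes. Signalling receptors held 9 higher members of 14 in frontal bone and 5 in parietal bone, with none called lower by edgeR, DESeq2 or limma-voom or at an unadjusted p under 0.05 in either.

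Cxcl12 was higher in frontal (log2 fold change 1.12 ± 0.14) and in parietal bone (1.36 ± 0.16), and Ackr3 was lower in each (-3.82 ± 0.19 and -3.06 ± 0.22). Cxcr4 was higher in frontal bone (0.52 ± 0.16, adjusted p = 0.0167) and not called in parietal bone (0.36 ± 0.18, adjusted p = 0.106). Its frontal call was lost without femur library 1 (0.40, adjusted p = 0.0597), femur library 2 (0.49, 0.061) or frontal library 1 (0.41, 0.0719), and without femur library 4 it was called in parietal bone (0.50, 0.0298). The difference between the effects in these bones is the frontal against parietal test, which did not call Cxcr4 (0.16 ± 0.18, adjusted p = 0.587).

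Other receptors and ligands also had a call in 1 calvarial bone. Cxcr3 had log2 fold changes of 1.63 ± 0.44 (adjusted p = 0.00808) in frontal and 0.33 ± 0.51 (adjusted p = 0.61) in parietal bone. Cxcr5 stood at 6.69, 5.65 and 5.47 CPM in femur, 10.5, 9.34 and 7.56 CPM in frontal bone and 5.26 and 4.94 CPM in parietal bone, higher in frontal bone than in femur by 0.63 ± 0.22 (adjusted p = 0.029) and not called in parietal bone (-0.21 ± 0.25). All frontal libraries lay above all libraries of the other bones, but exons of Cxcr5 overlap Bcl9l on the opposite strand, and the frontal call was lost without femur library 2 or 4 or frontal library 1 or 2 (adjusted p from 0.0624 to 0.0981). Cxcr6 was called higher in parietal (1.53 ± 0.35, adjusted p = 0.00271) and not in frontal bone (0.78 ± 0.33, adjusted p = 0.064), where it was called without frontal library 1 (1.02, 0.0231). Ccl5 was called lower in parietal (-1.14 ± 0.28, adjusted p = 0.00445) and not in frontal bone (-0.48 ± 0.24, adjusted p = 0.112), where it was called without frontal library 1 (-0.74, 0.0298). Between frontal and parietal bone, Cxcr3 (1.31 ± 0.47, adjusted p = 0.0985), Cxcr5 (0.84 ± 0.25, adjusted p = 0.0588), Cxcr6 (-0.75 ± 0.33, adjusted p = 0.161) and Ccl5 (0.66 ± 0.28, adjusted p = 0.142) were not called.

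Ccl8 (1.04 ± 0.38), Ccl9 (0.37 ± 0.14), Ccr7 (0.63 ± 0.16) and Cx3cr1 (0.63 ± 0.23) were also higher in frontal bone. Of these, Ccl8 lost its call without any library other than femur library 1 or frontal library 4 (adjusted p up to 0.119). Ccl9 lost it without femur library 1 or 2, frontal library 1 or 4, or parietal library 2 or 4 (up to 0.197), and Cx3cr1 without femur library 1 or 4 or frontal library 1 or 4 (up to 0.114). In parietal bone, Ccl22 (-2.10 ± 0.63, adjusted p = 0.0138) and Cxcl10 (-0.82 ± 0.23, adjusted p = 0.00925) lost their call without parietal library 2, at adjusted p of 0.121 and 0.0938.

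**Figure D5:**
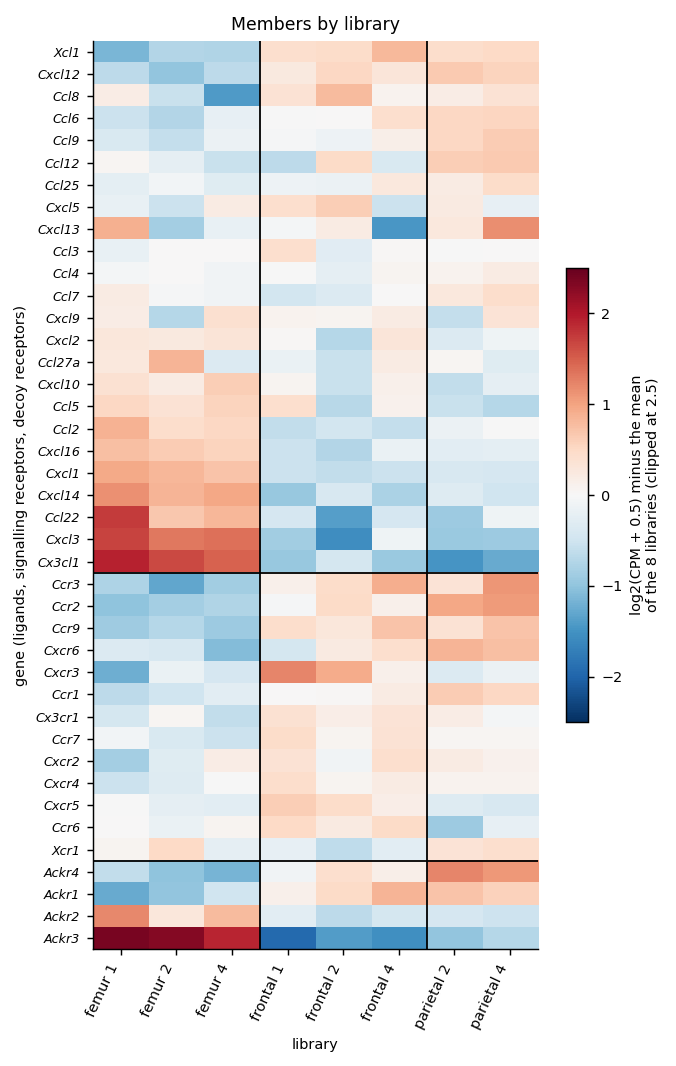
Level of the tested members (y axis; 1 not shown) in each library (x axis) as log2(CPM + 0.5) minus the member's mean over the 8 libraries, with red for higher and blue for lower; members are grouped as ligands, signalling receptors and decoy receptors. Ackr3, Cx3cl1 and Cxcl3 are red in all 3 femur libraries and blue in the calvarial ones, and Cxcl12, Ccr2 and Ackr4 show the reverse, with pale values in some frontal libraries.

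Frontal bone was last compared with parietal bone. Of the 42 tested members, 0 were higher and 4 were lower in frontal bone, where 3.91% of all genes tested were called higher and 3.30% lower. At an unadjusted p under 0.05, edgeR had 5 higher and 10 lower members, while DESeq2 and limma-voom each called 1 higher (Cxcr5) and 6 lower. None of the 4 members was called under all 17 alternatives. Ackr4 was lower by a log2 fold change of -0.98 ± 0.20 (adjusted p = 0.0295), Ccr2 by -0.81 ± 0.16 (adjusted p = 0.0295), Ackr3 by -0.77 ± 0.20 (adjusted p = 0.0419) and Ccl9 by -0.58 ± 0.15 (adjusted p = 0.0464). In each of these genes the 3 frontal libraries lay below the 2 parietal libraries, as they did in 25.6% of all genes tested. All 4 calls were lost on leaving out femur library 2, frontal library 1 or 4, or either of the parietal libraries, at adjusted p from 0.0551 to 0.313, and that of Ccl9 also without frontal library 2 (-0.52, 0.0633). Members not called with all libraries passed on leaving out others. Without femur library 1, Ccr1 (-0.47, adjusted p = 0.0353) and Ccl2 (-0.44, 0.0424) were called lower and Cxcr5 higher (0.88, 0.0472). Ccr1 was also called lower without femur library 4 (-0.50, 0.037), and Ccl5 higher without frontal library 2 (0.93, 0.0142).

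Genes of bone cell lists were called in this contrast too. Of the 9 osteoblast and matrix genes, 3 were lower in frontal bone, namely Bglap2 (log2 fold change -1.36) and Bglap (-1.37), near-identical osteocalcin genes whose reads can be split between them, and Spp1 (-1.06), osteopontin. This list took 1.21 to 3.26% of counts in frontal and 2.81 to 3.02% in parietal bone. The osteoclast list took 0.154 to 0.252% in frontal and 0.327 to 0.364% in parietal bone, and 2 of its 7 genes were lower in frontal bone. Monocyte and macrophage genes took 0.222 to 0.24% and 0.239 to 0.242%, and osteocyte genes 0.0749 to 0.122% and 0.129 to 0.14%, with 1 of 10 called higher in frontal bone. Their part in these levels was not tested.

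Genes that act around the members were counted by list in calvaria against femur. Of 65 genes that carry the signal of chemokine receptors, 18 were higher (27.7%) and 24 lower (36.9%), near the 29.6 and 31.4% of all genes tested, with a median log2 fold change of -0.08. Stat3, a transcription factor downstream of many receptors, fell by 1.74, Ptk2, the focal adhesion kinase, by 2.30, and Gna13, a G protein subunit, by 1.51. Among those that rose were Gng2, another G protein subunit (1.37), and Rgs18, a regulator of G protein signalling (1.37). Of 27 tested inducers of inflammatory chemokines, 8 were higher (29.6%) and 13 lower (48.1%), with a median of -0.27. Il6 fell by 2.24, the NF-kappaB subunit Rela by 2.10 and the TNF receptor Tnfrsf1b by 1.18, while the interferon gamma receptor Ifngr1 (0.81) and the cytokine Il1b (0.91) rose. Of 21 genes of the CXCL12 niche and of CXCL12 processing, 7 were higher (33.3%) and 11 lower (52.4%), with a median of -0.82. Mmp14, a membrane protease, fell by 2.45, Cd44, a hyaluronan receptor, by 2.72 and the proteoglycan Sdc4 by 1.76. The proteases of this list went both ways. Dpp4 (1.66), Ctsg (1.54), Elane (1.35) and Ctsk (1.165) rose, while Mmp14 fell. Mmp2 had a mean of 262 CPM in femur and 74.9 CPM in calvaria, and Mmp9 one of 479 and 551 CPM.

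Chemokines and scavengers whose symbols fall outside the rule were 8 genes, of which 7 were tested, 4 were higher and 1 was lower. The platelet chemokines Ppbp and Pf4 rose by 1.33 and 1.16 on the log2 scale. Rarres2, which encodes chemerin, rose by 0.92, and Pitpnm3, reported as a receptor of human CCL18, fell by 2.90. The megakaryocyte and platelet list, which also holds Ppbp and Pf4, took 0.0528 to 0.129% of counts in femur and 0.116 to 0.245% in calvaria, with 4 of 8 genes higher, and its part in these levels was not tested.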

How the data were processed

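Total RNA was made into Nextera XT libraries and sequenced in paired-end mode, per the labels' protocols. Of 3 tables deposited by the authors, the first held raw counts for 43438 rows, 92 of them spike-in controls, and the second a subset of 23065 rows with the same counts. The last deposited table gives a normalized signal, CPM values scaled by the authors. The submitters' processing notes name STAR 2.5.2a, limma, edgeR and DESeq2 and list mm10 and GRCm38.p3 as builds. How reads were counted (tool, strand setting, annotation) is not given in the sources used here.

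The deposited counts were fitted in R 4.3.3 with edgeR 4.0.16 (filterByExpr with a count minimum of 10, TMM scaling, robust quasi-likelihood fit with the 3 bones as groups over all 8 libraries, 5 residual degrees of freedom, biological coefficient of variation 18.6%). Spike-ins stayed out of library sizes and tests. Femur was compared with frontal bone, with parietal bone and with their mean (calvaria), and the 2 calvarial bones with each other. A standard error is the size of a log2 fold change over the square root of its F statistic. Exon lengths and positions are from GENCODE M21 on GRCm38, and may differ from the annotation behind the counts. Alternatives used DESeq2 1.42.0, limma-voom from limma 3.58.1, other scalings and filters, a replicate block, fewer libraries and the libraries of the bones compared alone.

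The members, their roles and the gene lists were chosen with earlier results of these data known. Every tested member is named except 1, which is counted in the totals but not reported here, and every library is given for the CXCL12 axis, for up to 4 members of a role that were called in any comparison and reached a mean of 5 CPM in some bone, and for members called between frontal and parietal bone. For each pathway list, the 3 genes with the smallest p are named, with others added to show the members after their values were seen. Counts of libraries from the same bone differed beyond sampling noise in every pair, the smallest chi-square per degree of freedom being 7.75.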

Additional observations from a re-analysis of the deposited data

Results flagged for a closer look

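For 4 members the effect against femur differed between the calvarial bones by the test of frontal against parietal bone itself. The log2 fold change of frontal against parietal bone was -0.77 for Ackr3, the decoy receptor of CXCL12, which was lower than in femur in both bones and lowest in frontal bone. It was -0.98 for Ackr4, -0.81 for Ccr2 and -0.58 for Ccl9, which were higher than in femur in both bones and highest in parietal bone. With 2 parietal libraries, each of these calls depended on single libraries.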

How the results depend on the processing

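Under the 16 or 17 alternatives of each comparison, no called member changed direction. Called throughout were 22 of 26 members for calvaria against femur, 20 of 25 for frontal and 20 of 22 for parietal bone against femur, and 0 of 4 for frontal against parietal bone. Upper quartile scaling, which moved the median log2 fold change of all genes against femur to between 0.185 and 0.187, raised the members called higher in parietal bone against femur from 11 to 18. Library size alone moved that median to 0.107 for calvaria and 0.159 for frontal bone. Between frontal and parietal bone, 1 member in place of 0 was higher with library size only, without a filter, by DESeq2 and by limma-voom, and 2 in place of 4 were lower with library size only. Leaving out 1 library gave 0 to 1 higher and 0 to 6 lower members there, 12 to 15 higher and 11 to 12 lower for calvaria, 12 to 15 and 9 to 11 for frontal bone, and 11 to 13 and 9 to 12 for parietal bone against femur. With the library number as a replicate block, 0 members were lower in frontal than in parietal bone. Correlations of the deviations of same-numbered libraries ran from -0.103 to 0.145. These deviations are from means of 2 or 3 libraries, so the 2 parietal ones mirror each other (correlation -1). They cannot show whether same-numbered libraries are pairs, and the main fit did not treat them as pairs. The causes were not tested. In the authors' deposited scaled table the log2 ratio of calvaria to femur was 0.056 to 0.075 higher than by CPM for the 42 tested members, and 1 member changed sign. The filter on low counts leaves 18 members untested, 4 of them without any count, and overlapping exons leave the values of 10 members uncertain.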
